A study of Homo sapiens with 9 samples.

Results

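Mitochondrial ribosomal protein genes were followed across control Huh7 cells and 2 ZMAT2 hairpin groups. All protein-coding genes of the deposited expression table whose symbol is MRPL or MRPS, a number and at most 1 letter from A to C were taken, which gave 77 of 27421 listed genes and of 16964 protein-coding ones. Names beginning with MRPL accounted for 48 and names beginning with MRPS for 29. Of the 77, 75 reached the level required for testing, at least 1 FPKM in at least 3 libraries, among 11245 tested genes. FPKM counts the fragments of a gene per kilobase of transcript, scaled to the total fragments of the library.

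Huh7 is an established human hepatocellular carcinoma line, a cancer line of liver origin. The control group, the group expressing the first hairpin (shZMAT2-1) and the group expressing the second (shZMAT2-2) held 3 libraries each, and the stated question was whether ZMAT2 acts on hepatocellular carcinoma through mRNA splicing. ZMAT2 is a spliceosomal protein with a zinc finger. The labels name no control hairpin, vector, clone or time after transduction, and leave unsaid whether the 3 libraries of a group are separate cultures. The p-values therefore reflect library-to-library spread, which may be technical. In bulk libraries such as these, fewer cells of a type and less RNA per cell cannot be told apart.

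Mitochondrial ribosomes translate the few messenger RNAs encoded by mitochondrial DNA, all of which specify subunits of the respiratory chain or ATP synthase. Their RNA comes from mitochondrial DNA, but every protein of both subunits is encoded in the nucleus, made in the cytosol and imported. Some of these proteins descend from bacterial ribosomal proteins and others were gained within mitochondria. Liver cells are rich in mitochondria, and the balance between both genomes is a known feature of respiratory chain biogenesis.

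By known location of the protein, 50 of the 77 genes encode large-subunit proteins, 26 encode small-subunit proteins, and MRPS36 is now regarded as a component of the 2-oxoglutarate dehydrogenase complex instead. The large subunit includes MRPS18A and MRPS30 despite their names. The genes lie on 21 chromosomes, so they do not form a cluster. MRPL12, the reference gene of the set, is listed at chr17:81703367-81707517 on the plus strand. No build for these deposited coordinates is given in the sources used here. A head-to-head neighbour within 1 kilobase, a gene starting on the opposite strand, was present in GENCODE 29 for 17 of 77 (22.1%), against 8.32% of 16825 protein-coding genes.

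The promoters of 68 of the 77 were found among RefSeq windows of GRCh38.p14, each from 250 bases before to 50 bases after a start. MRPL2, MRPL10, MRPL13, MRPL15, MRPL21, MRPL23, MRPL35, MRPS28 and MRPS36 had no entry. Each window was searched on both strands for CCGGAAG, the core bound by ETS-family factors such as GABP, for AANATGGCG, a YY1 site, for GCGCA followed by any base and GCGC, an NRF1 site, and for TATAAA. The 6 stretches that follow run from 60 bases before to 30 bases after the start, 5′ to 3′ on the gene's strand, with ETS and YY1 matches in capitals. They show the 3 genes with the lowest differences of shZMAT2-2 from shZMAT2-1 (MRPL12, MRPS12 and MRPL54) and 3 genes with smaller ones (MRPS10, MRPS18A and MRPS30). MRPL12 lies at chr17:81703307-81703396 (plus), MRPS12 at chr19:38930884-38930973 (plus), MRPL54 at chr19:3762622-3762711 (plus), MRPS10 at chr6:42217832-42217921 (minus), MRPS18A at chr6:43687762-43687851 (minus) and MRPS30 at chr5:44808887-44808976 (plus).
MRPL12: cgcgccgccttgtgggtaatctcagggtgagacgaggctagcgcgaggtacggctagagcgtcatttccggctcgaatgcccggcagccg
MRPS12: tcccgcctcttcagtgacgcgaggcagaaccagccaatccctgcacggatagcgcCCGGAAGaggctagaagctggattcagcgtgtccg
MRPL54: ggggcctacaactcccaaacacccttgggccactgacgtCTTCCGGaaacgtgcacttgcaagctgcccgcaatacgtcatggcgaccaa
MRPS10: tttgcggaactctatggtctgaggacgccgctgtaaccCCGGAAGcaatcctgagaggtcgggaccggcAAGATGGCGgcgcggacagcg
MRPS18A: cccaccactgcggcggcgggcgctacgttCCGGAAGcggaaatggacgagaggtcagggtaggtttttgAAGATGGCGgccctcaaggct
MRPS30: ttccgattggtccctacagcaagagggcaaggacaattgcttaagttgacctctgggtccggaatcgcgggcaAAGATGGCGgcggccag

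The MRPL54 capitals are the ETS letters on the opposite strand. MRPS10 and MRPS18A carried the ETS letters before the start and the YY1 letters after it, and the MRPL12 stretch held neither. Over the whole windows, the ETS letters occurred in 29 of 68 members (42.6%), against 23.9% of 8719 tested genes with a window and 12.2% of 27305 genes of the RefSeq table. The YY1 letters occurred in 18 of 68 (26.5%), against 8.83% of tested genes and 3.85% of all. The NRF1 letters were found in 13.2% of members and 14.4% of tested genes, and TATAAA in 4.41% of members and 8.23% of tested genes.

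Positions also differed between both motifs. In 21 of the 29 genes with ETS letters a match lay in the 60 bases before a start, whereas in 16 of the 18 genes with YY1 letters it lay after the start. Both motifs were present in 4 genes. A match describes the sequence and is not evidence of binding.

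Before the results, the libraries themselves must be described. Their depth, recovered from the steps between low FPKM values, was 18430000 to 23740000 fragments. ZMAT2 averaged 36.5 ± 3.32 FPKM in the control, 13.7 ± 1.30 with shZMAT2-1 and 21.1 ± 0.92 with shZMAT2-2 (SD, n = 3 each), with limma adjusted p of 0.028 and 0.11 against the control, so the second reduction did not pass the threshold although no library overlapped. All 8 liver-cancer line markers reached 1 FPKM, with sums of 3098 to 5740 FPKM. Sums of 4 fibroblast markers were 1.54 to 3.93 FPKM with COL1A1 and COL3A1 under 1, sums of 4 leukocyte markers were 2.47 to 8.78 with only CD14 reaching 1, and sums of 3 endothelial markers were 0.695 to 1.70.

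The 13 mitochondrially encoded protein genes took very different shares of the fragments. The share was 7.86%, 43.2% and 8.28% in control replicates 1 to 3, 8.25%, 16.4% and 7.70% in those of shZMAT2-1, and 27.0%, 14.5% and 16.6% in those of shZMAT2-2. Control replicate 2, shZMAT2-1 replicate 2 and shZMAT2-2 replicate 1 therefore stood apart from the other libraries of their groups, and all shZMAT2-2 libraries exceeded control replicates 1 and 3. Since FPKM divides by all fragments, a larger mitochondrial share lowers the FPKM of any nuclear gene whose share of the nuclear fragments is unchanged. In control replicate 2, 87.3% of tested genes were below the mean of control replicates 1 and 3, so not every gene was.

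Mitochondrial ribosomal protein mRNAs were well expressed in this line. The mean FPKM over the 9 libraries had a median of 15.2 over the 77 genes, against 5.61 over the tested genes, and 53 of the 77 exceeded 10 FPKM in the control mean. The 5 highest were MRPL11, with a mean of 98.8 FPKM, MRPS34 with 84.2, MRPL41 with 70.8, MRPS35 with 69.0 and MRPL51 with 65.3. MRPL11 is a protein of the GTPase-associated region where translation factors act, and the other 4 are mitochondria-specific proteins. Between the last 4, neighbouring means differed by less than the spread between libraries.

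MRPS24 and MRPS5, small-subunit proteins with bacterial counterparts, missed the level for testing. MRPS24 was listed at 0.0335 to 0.194 FPKM over the 9 libraries. In GENCODE 29, 23.2% of its exonic bases are shared with the readthrough gene URGCP-MRPS24 on the same strand, and fragments that fit both genes may not have been counted. MRPS5 was at 0.484 to 1.05 FPKM.

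The summed FPKM of the 77 genes varied within groups as well as between them. It was 1836, 884 and 1888 in control replicates 1 to 3, 2246, 1376 and 2115 in those of shZMAT2-1, and 1208, 1397 and 1600 in those of shZMAT2-2. As a share of all nuclear FPKM, which takes the mitochondrial transcripts out of the total, it was 0.890%, 0.761% and 0.906%, then 1.02%, 0.792% and 0.975%, then 0.803%, 0.793% and 0.865%. Control replicate 2 remained the lowest library and shZMAT2-1 replicates 1 and 3 the highest on both scales, and the 3 groups overlapped on both.

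**Figure D1:**
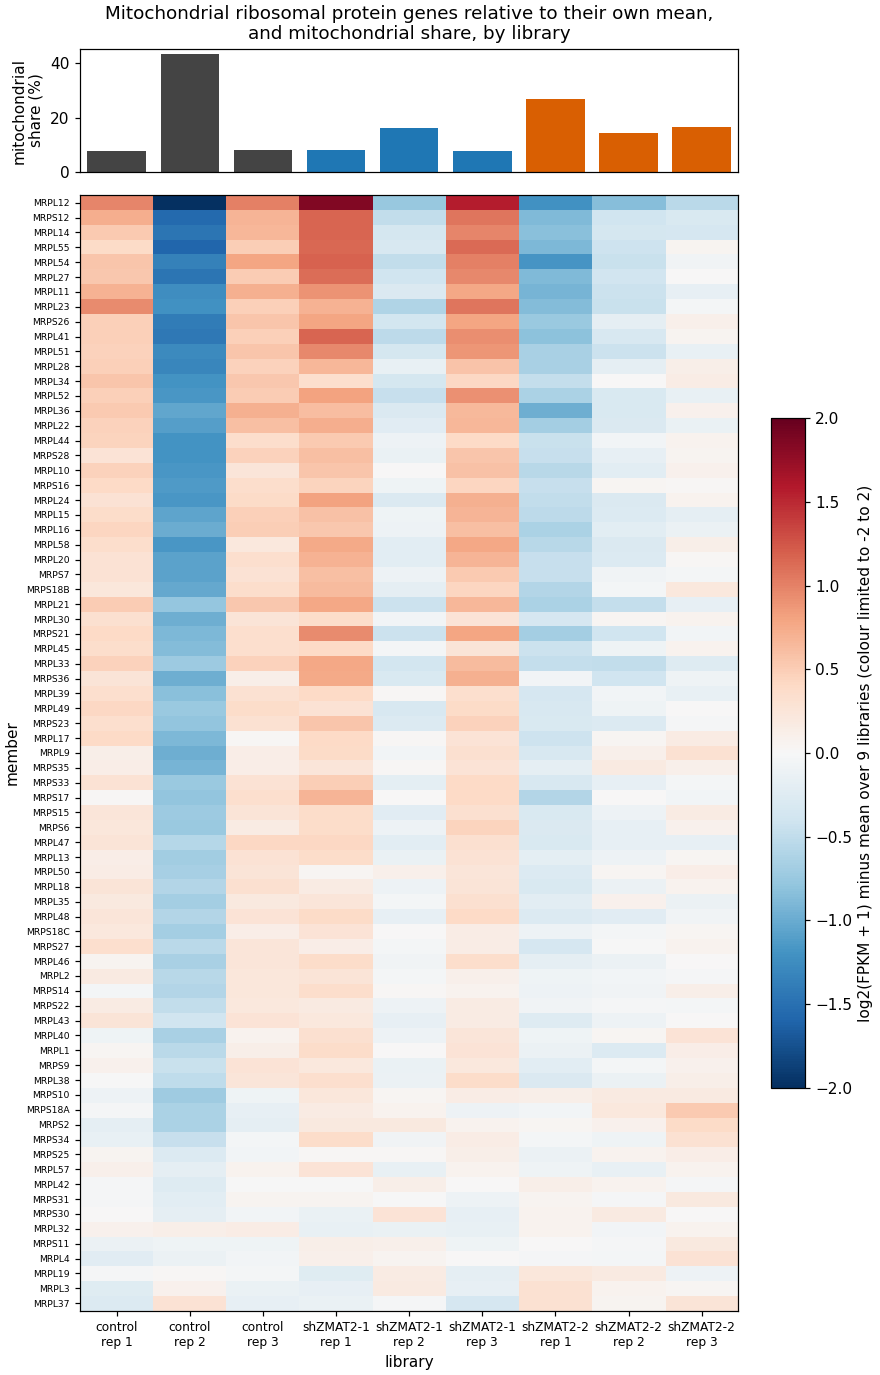
Heat map of log2(FPKM + 1) of the 75 tested genes in 9 libraries, each gene relative to its own mean and ordered by the difference of control replicate 2 from the other controls (colour limited to 2 units each way), under bars of the mitochondrially encoded share of fragments in percent. Control replicate 2, with a share of 43.2%, is the lowest of its group for 69 of 75 genes, and shZMAT2-1 replicates 1 and 3 carry the highest values for many of them.

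Within groups, most of these genes moved together. Control replicate 2 was the lowest of its group for 69 of 75 genes, but so it was for 85.5% of all tested genes. On the log2(FPKM + 1) scale it lay below the mean of control replicates 1 and 3 by a median of -1.10 over the 75 genes, against -0.60 over all tested genes. The difference ranged from -3.04 for MRPL12 to 0.50 for MRPL37, and 61 of the 75 lay below the median of all tested genes.

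The first hairpin group showed the same order among its libraries. shZMAT2-1 replicate 2 was the lowest of its group for 62 of 75 genes, against 52% of tested genes, and its median difference from replicates 1 and 3 was -0.52, against -0.08. In the second hairpin group, replicate 1, which had the group's largest mitochondrial share, was the lowest for 61 of 75 genes, against 63.8% of tested genes.

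Genes with a large difference within the control also had one within shZMAT2-1. Across the 75 genes, the 2 differences, which share no library, had a Pearson r of 0.90 and a Spearman rho of 0.91, and across all 11245 tested genes these were 0.78 and 0.77. Genes are not independent replicates, and both differences contrast libraries of unequal mitochondrial share, so these values are descriptions. The control difference had a rho of 0.37 with transcript length, -0.30 with transcript GC content and -0.08 with mean level over the 75 genes, against 0.36, -0.35 and -0.30 over the tested genes. The part of the mitochondrial share, of length and of GC content in these differences was not tested.

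**Figure D2:**
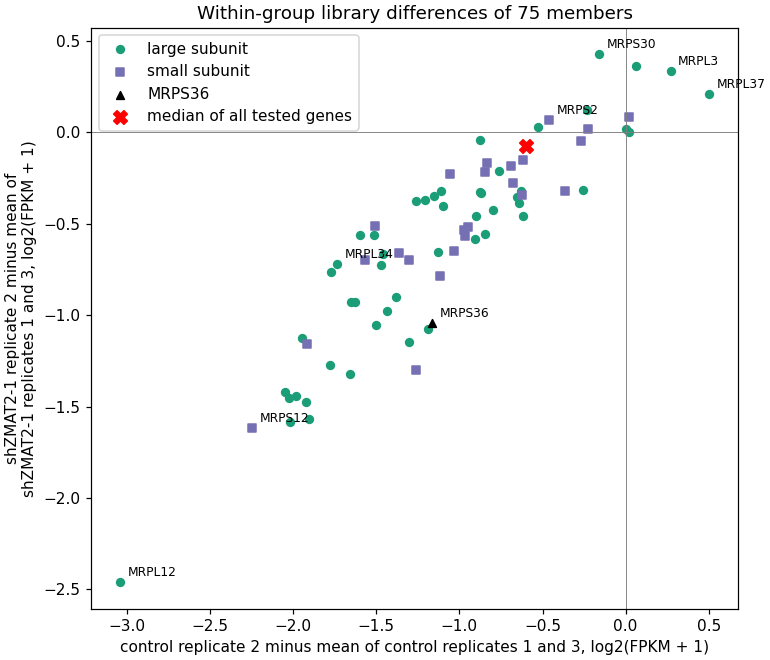
Each point is 1 of 75 genes, with the log2(FPKM + 1) of control replicate 2 minus the mean of control replicates 1 and 3 on the x axis and the same difference within shZMAT2-1 on the y axis. MRPL12 lies farthest down at -3.04 and -2.46, MRPL37 and MRPL3 lie above 0 on both axes, and the cross marks the medians of all tested genes at -0.60 and -0.08.

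MRPL12, which forms the stalk that contacts elongation factors and has also been reported to bind the mitochondrial RNA polymerase, was the most variable of the tested genes of the set. It measured 20.6, 1.65 and 21.0 FPKM in control replicates 1 to 3, 38.4, 5.497 and 31.5 FPKM in those of shZMAT2-1, and 3.71, 5.09 and 6.53 FPKM in those of shZMAT2-2. The 3 low shZMAT2-2 values overlapped the control group only through control replicate 2, and were close to shZMAT2-1 replicate 2. The levels spanned 23.3-fold. Control replicates 1 and 3 averaged 12.6 times control replicate 2.

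With all 9 libraries, no group difference of MRPL12 passed the threshold. Its log2(FPKM + 1) differed from the control by 0.91 ± 0.85 (SE) in shZMAT2-1 and by -0.85 ± 0.85 in shZMAT2-2, with limma adjusted p of 0.81 and 1.0. The 6 hairpin libraries differed from the 3 controls by 0.03 on average, with an exact two-sided permutation p of 0.988 over 84 assignments, of which the smallest possible is 0.0119. shZMAT2-2 was 1.75 ± 0.85 lower than shZMAT2-1, with a limma unadjusted p of 0.066 and an adjusted p of 0.66. Only 1 of 11245 tested genes had a lower value in that contrast, and only 2 and 1 had lower ones in the within-control and within-shZMAT2-1 differences. Other fits did call MRPL12. In a fit of control and shZMAT2-1 alone with the replicate number as a block, its 0.91 had a limma adjusted p of 0.015. With control replicate 2 and shZMAT2-1 replicate 2 left out, it was at -1.86 in shZMAT2-2 against control and -2.57 against shZMAT2-1, with limma adjusted p of 0.00021 and 5.1e-05. With shZMAT2-2 replicate 1 left out too, these were -1.68 and -2.40, and 0.72 in shZMAT2-1 against control, all called.

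A counting limit applies to MRPL12. In GENCODE 29, 68.2% of its exonic bases are shared on the same strand with the protein-coding gene model AC139530.2, so its level depends on how shared fragments were assigned. Of the 77 genes, 15 share exonic bases with another gene on their strand. The 13 tested ones had a median within-control difference of -1.19, and the 62 without such overlap one of -1.05.

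MRPL10, the protein on which MRPL12 is anchored, moved less. It measured 15.9, 4.47 and 13.5 FPKM in the control, 17.0, 11.3 and 17.3 FPKM with shZMAT2-1 and 7.38, 9.65 and 11.97 FPKM with shZMAT2-2. Control replicate 2 was again the lowest of all 9. Its difference between hairpins was -0.60 ± 0.39 (limma adjusted p = 0.66).

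Several other genes followed the pattern of MRPL12 with smaller amplitude. MRPS12, a protein of the decoding centre, measured 25.1, 4.41 and 24.4 FPKM in the control, 34.6, 10.2 and 32.4 FPKM with shZMAT2-1 and 7.61, 10.97 and 11.9 FPKM with shZMAT2-2. MRPL54, a mitochondria-specific large-subunit protein, measured 24.9, 5.90 and 29.3 FPKM, then 39.0, 11.6 and 34.4 FPKM, then 6.82, 11.97 and 15.8 FPKM. In both genes, replicates 1 and 3 of the control and of shZMAT2-1 were high, and the other 5 libraries were low. Differences between hairpins were -1.11 ± 0.62 for MRPS12 and -1.13 ± 0.60 for MRPL54, with limma adjusted p of 0.66 for each.

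MRPL14, MRPL55, MRPL41 and MRPL51 had the same 4 high libraries. MRPL41, a mitochondria-specific protein, measured 85.5, 22.01 and 85.1 FPKM in the control, 138, 42.3 and 118 FPKM with shZMAT2-1 and 34.2, 48.6 and 63.7 FPKM with shZMAT2-2. MRPL11 likewise ran from 36.0 FPKM in control replicate 2 to 162 FPKM in shZMAT2-1 replicate 1. Of the 75 tested genes, 10 spanned over 5-fold across the libraries and 18 spanned under 2-fold. The shares of all tested genes with such ranges were not determined, so these counts do not set the members apart. The 10 were MRPL12, MRPL14, MRPL23, MRPL27, MRPL41, MRPL52, MRPL54, MRPL55, MRPS12 and MRPS28, which were named for their range after the values were seen.

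The steadiest genes kept their level in the same libraries. MRPL32, a large-subunit protein matured by the m-AAA protease, measured 20.2, 20.7 and 21.1 FPKM in the control, 16.9, 17.2 and 16.9 FPKM with shZMAT2-1 and 19.98, 18.3 and 19.9 FPKM with shZMAT2-2. Its libraries fell into groups that do not overlap, with shZMAT2-1 lowest and control highest. The difference from the control was -0.27 ± 0.16 for shZMAT2-1 and -0.09 ± 0.16 for shZMAT2-2, with limma adjusted p of 0.81 and 1.0.

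MRPL37, a mitochondria-specific protein, ran the other way. It measured 50.8, 75.2 and 54.9 FPKM in the control, 55.7, 60.4 and 48.7 FPKM with shZMAT2-1 and 76.0, 63.8 and 73.9 FPKM with shZMAT2-2. Control replicate 2 was the highest control, and the 3 shZMAT2-2 libraries lay above the 3 of shZMAT2-1 without overlap. The difference between hairpins was 0.37 ± 0.22, with a limma adjusted p of 0.66.

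MRPL3, which lies near the peptidyl transferase centre, measured 43.4, 54.8 and 47.2 FPKM in the control, 46.2, 58.5 and 46.1 FPKM with shZMAT2-1 and 63.7, 54.4 and 53.2 FPKM with shZMAT2-2. Replicate 2 was the highest in the control and in shZMAT2-1. MRPL19, another large-subunit protein, stayed between 4.43 and 6.46 FPKM.

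**Figure D3:**
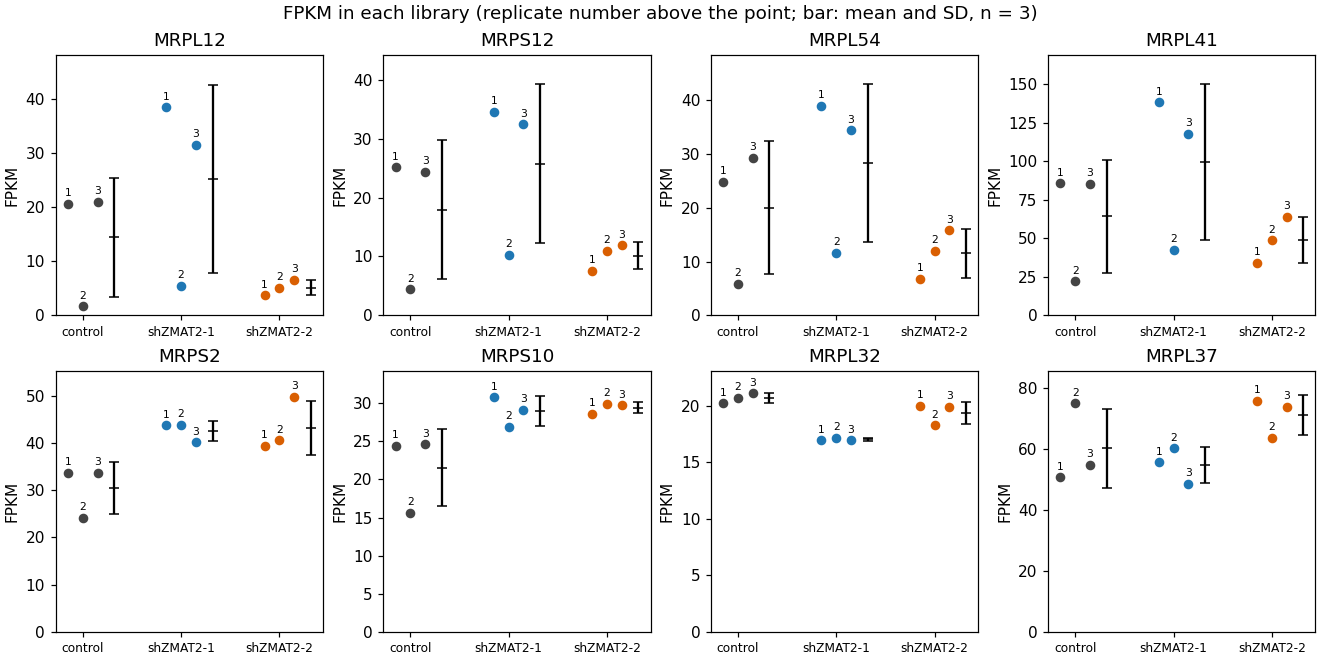
FPKM of 8 genes in each library (points, labelled with the replicate number) with the mean and SD of each group of 3. In the upper row, MRPL12, MRPS12, MRPL54 and MRPL41 are low in replicate 2 of the control and of shZMAT2-1 and in all shZMAT2-2 libraries, and in the lower row MRPS2 and MRPS10 are above the 3 controls in all 6 hairpin libraries, MRPL32 is below them and MRPL37 overlaps them.

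Comparing groups over all 75 genes with all 9 libraries, no block and no covariate, no gene of the set passed an adjusted p of 0.05 in limma. The count was 0 for shZMAT2-1 against control, where 0.08% of tested genes passed, 0 for shZMAT2-2, where 0.587% passed, 0 for the mean of both hairpin groups, where 0.542% passed, and 0 for shZMAT2-2 against shZMAT2-1, where 0 of 11245 passed. At an unadjusted p under 0.05 the counts were 1, 2, 2 and 0 of 75, against 5.76%, 7%, 6.93% and 4.14% of tested genes. In this fit the shares of the set were at or below the background in each contrast. Without control replicate 2 they were above it for shZMAT2-2, at 30 of 75 (40%, against 29.5%) relative to control and 26 of 75 (34.7%, against 23.7%) relative to shZMAT2-1. Without shZMAT2-1 replicate 2 the latter count was 19 (25.3%, against 17.8%). The controls left without control replicate 2 had mitochondrial shares of 7.86% and 8.28%, against 14.5% to 27.0% with shZMAT2-2. The shZMAT2-1 libraries left without replicate 2 had 8.25% and 7.70%. Hairpin and mitochondrial share cannot be told apart against control without control replicate 2, or against shZMAT2-1 without shZMAT2-1 replicate 2. Without control replicate 2 alone, shZMAT2-1 still held its replicate 2, at 16.4%, and overlapped shZMAT2-2 through it. The differences between hairpins were then those of all 9 libraries (median -0.36), and only the estimate of spread changed. The part of the mitochondrial share in that count was not tested.

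The same-numbered libraries of control and shZMAT2-1 deviated together, with correlations of 0.61 to 0.78 over 3 pairs. Replicates 1 and 3 did so across numbers as well. Control replicate 1 had 0.68 with shZMAT2-1 replicate 3, and control replicate 3 had 0.69 with shZMAT2-1 replicate 1. Pairs of replicate 2 with replicate 1 or 3 had -0.76 to -0.69. Each deviation is taken from the mean of its group, so the 3 of a group sum to 0 for every gene. Given the 0.78 between both replicates 2, the negative values, and the positive ones among replicates 1 and 3, follow in part by arithmetic. That 0.78 is the Pearson r already given for the within-control and within-shZMAT2-1 differences. As descriptions, the correlations set replicate 2 apart and do not pair replicates 1 and 3 by number. In a fit of these 6 libraries with the replicate number as a block, chosen after seeing the data, 2 of the 75 genes passed, MRPL12 and MRPL55, both higher with shZMAT2-1, against 2.21% of all tested genes. At an unadjusted p under 0.05 these were 20 of 75 (26.7%) and 14.4%. Replicate 2 was the library of larger mitochondrial share in both groups, and the part of that share in this pairing was not tested.

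By the median, the set was higher than the control with shZMAT2-1 and close to it with shZMAT2-2. For shZMAT2-1 the median difference in log2(FPKM + 1) was 0.33, with 72 of 75 above 0, against 0.16 and 72.9% over all tested genes. For shZMAT2-2 it was -0.04, with 27 of 75 above 0, against 0.05 and 58.4%. Relative to the median of all tested genes these are 0.17 and -0.09. With TPM, nuclear or median-of-ratios scaling, which moved the median of all tested genes to between -0.03 and 0.37 for shZMAT2-1, the set stayed 0.15 to 0.19 above it for shZMAT2-1 and -0.10 to -0.09 from it for shZMAT2-2. shZMAT2-2 lay below shZMAT2-1 by a median of -0.36, with 12 of 75 above 0, against -0.09 and 38.9% over all tested genes. That median was -0.60 with TPM, -0.24 with median-of-ratios and -0.14 with nuclear scaling, where all tested genes were at -0.31, 0.0090 and 0.11. It was -0.23 without shZMAT2-2 replicate 1 (all tested genes at -0.03). Both comparisons with the control share its 3 libraries.

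These medians depended on single libraries. Without control replicate 2, the median was -0.03 for shZMAT2-1, -0.41 for shZMAT2-2 and -0.23 for their mean, where all 9 libraries gave 0.13. All tested genes were then at -0.05, -0.15 and -0.11, so the distance of the set from them went from 0.17 to 0.03 for shZMAT2-1 and from -0.09 to -0.26 for shZMAT2-2. The shZMAT2-2 median turned to 0.13 without control replicate 1, 0.16 without control replicate 3 and 0.06 without shZMAT2-2 replicate 1. It was 0.13 with the mitochondrial share as a covariate. All tested genes were at 0.15, 0.14, 0.11 and 0.12 in these fits. The set thus lay -0.02, 0.01, -0.05 and 0.0046 from them, so the positive sign does not set its genes apart. Without both control replicate 2 and shZMAT2-1 replicate 2, a setting chosen after seeing the data, shZMAT2-1 was at 0.15 and shZMAT2-2 at -0.41 against the control, with all tested genes at -0.01 and -0.15. In that fit 39 of 75 genes passed for shZMAT2-2 against control, 38 of them lower and only MRPL37 higher, against 30.2% of all tested genes, and 48 passed for shZMAT2-2 against shZMAT2-1, 47 lower and again only MRPL37 higher, against 42.3%. With shZMAT2-2 replicate 1 left out as well, also chosen after seeing the data, the medians were 0.15 and -0.31 against the control and -0.40 between hairpins, with all tested genes at -0.01, -0.09 and -0.05. Then 7 genes passed for shZMAT2-1, all higher (8.31% of tested genes), 44 for shZMAT2-2, of which 39 were lower (32%), 7 for the mean of both, of which 5 were lower (11.2%), and 48 between hairpins, of which 46 were lower (41.8%). In both settings the shZMAT2-2 libraries that remained had larger mitochondrial shares (14.5% to 27.0%) than the remaining libraries of the other groups (7.70% to 8.28%). Hairpin and mitochondrial share therefore cannot be told apart there. Without control replicate 2 alone, the same holds for shZMAT2-2 against control.

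With that mitochondrial covariate, 6 genes were higher with shZMAT2-2 than in the control at a limma adjusted p under 0.05. They were MRPS10, MRPS2, MRPS35, MRPS18A, MRPL9 and MRPL40, against 9.84% of all tested genes. For the mean of both hairpins, 4 were higher (MRPS10, MRPS2, MRPS35 and MRPL9), against 9.75%. None was lower, and the median difference between the hairpins was 0.0046, where all 9 libraries without the covariate gave -0.36. All tested genes were at 0.089 with the covariate and -0.088 without it, so the set stayed below them. The shares of the set called in this fit were below those of all tested genes.

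The small-subunit genes MRPS2 and MRPS10 and the large-subunit gene MRPL4 lay above every control in all 6 hairpin libraries (4% of 75, against 4.69% of tested genes), and MRPL32 lay below every control (1.33%, against 0.685%). Taken alone, shZMAT2-1 had the same 3 genes above the controls (4%, against 9.1% of tested genes), and shZMAT2-2 had these and MRPS11 (5.33%, against 11.9%). MRPL32 was the 1 gene below the controls with either hairpin (1.33%, against 1.83% and 1.52%). MRPS2, a protein at the junction of the small-subunit head and body, measured 33.6, 24.2 and 33.6 FPKM in the control, 43.8, 43.9 and 40.2 FPKM with shZMAT2-1 and 39.4, 40.6 and 49.8 FPKM with shZMAT2-2. The 6 hairpin values did not overlap the 3 controls. Its mean difference was 0.49 ± 0.18, the highest of the set, with a limma unadjusted p of 0.020 and an adjusted p of 0.50.

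MRPS10, a small-subunit head protein, measured 24.4, 15.7 and 24.6 FPKM in the control, 30.8, 26.9 and 29.1 FPKM with shZMAT2-1 and 28.6, 29.9 and 29.7 FPKM with shZMAT2-2. The hairpin libraries lay close together above the controls, with a mean difference of 0.45 ± 0.18 (limma adjusted p = 0.63). MRPL4, a large-subunit protein, measured 14.9, 16.2 and 17.1 FPKM, then 19.1, 18.5 and 17.8 FPKM, then 17.3, 17.2 and 21.9 FPKM. The gap between its highest control and lowest hairpin library was small, and its mean difference was 0.20 ± 0.15 (limma adjusted p = 1.0).

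The next highest mean differences were 0.41 ± 0.19 for MRPS18A, 0.36 ± 0.27 for MRPL9 and 0.36 ± 0.50 for MRPL55. At the low end stood MRPL32 at -0.18 ± 0.14, MRPL21 at -0.14 ± 0.35, MRPL23 and MRPL36 at -0.10 ± 0.49 and -0.10 ± 0.41, and MRPL33 at -0.10 ± 0.32. None passed the limma test with all 9 libraries and no covariate. Without control replicate 2, MRPL9 was at -0.0027 and MRPL55 at -0.32.

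Between the hairpins, MRPL32 and MRPL37 were higher with shZMAT2-2 without overlap (2.67% of 75, against 5.59% of tested genes), and MRPL15, MRPL16 and MRPL39 were lower (4%, against 9.28%). MRPL16, a protein near the peptidyl transferase centre, measured 37.9, 24.1 and 39.8 FPKM with shZMAT2-1 and 16.2, 22.1 and 23.6 FPKM with shZMAT2-2. The gap rested on shZMAT2-1 replicate 2 lying just above the shZMAT2-2 libraries. Against shZMAT2-1 replicates 1 and 3 alone, all shZMAT2-2 libraries were lower for 58 of 75 genes, and for 41.7% of tested genes.

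**Figure D4:**
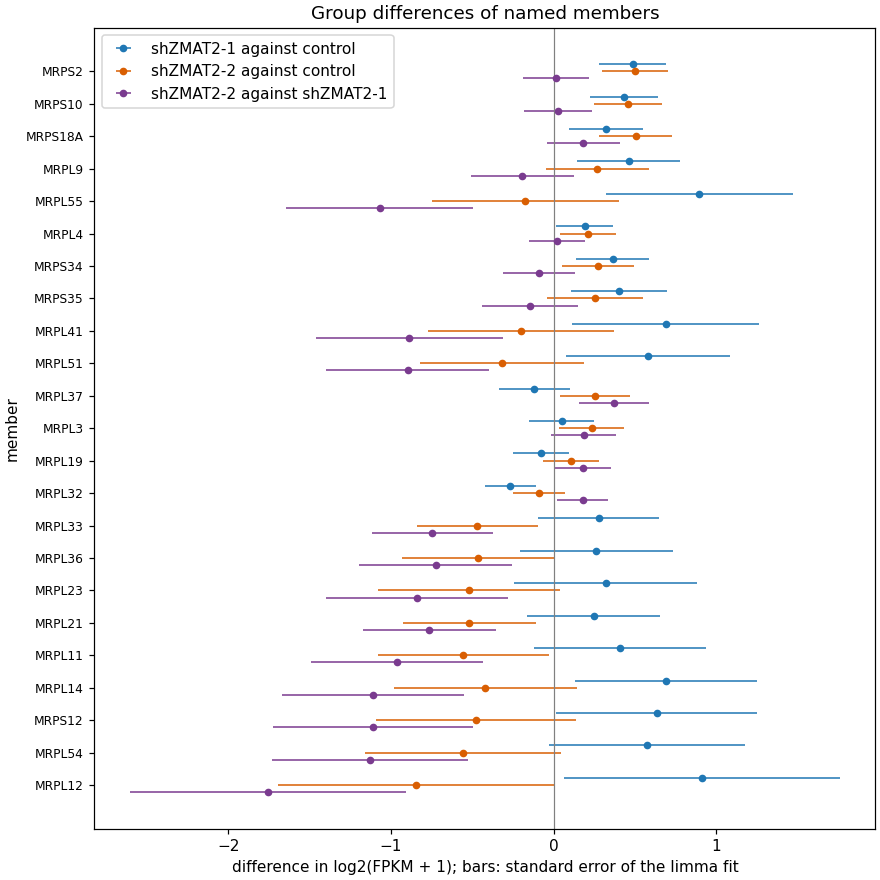
Differences in log2(FPKM + 1) between groups, with limma standard errors, for 23 named genes. The bars of MRPL12 are the longest (0.85), and MRPS2 and MRPS10 have similar positive values for both hairpins.

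The paralogs MRPS18A, MRPS18B and MRPS18C occupy different sites, the first in the large subunit and the other two in the small one. MRPS18A measured 16.7, 10.7 and 15.1 FPKM in the control, 19.4, 17.9 and 15.9 FPKM with shZMAT2-1 and 16.4, 20.1 and 25.04 FPKM with shZMAT2-2. MRPS18B measured 35.7, 14.5 and 39.1 FPKM, then 47.5, 26.9 and 41.4 FPKM, then 19.9, 29.5 and 35.2 FPKM. MRPS18B had its lowest library in control replicate 2, with a within-control difference of -1.31 against -0.53 for MRPS18A. MRPS18C stayed between 1.62 and 4.08 FPKM with a difference of -0.85. With all 9 libraries and no covariate, none of the 3 passed a group test. MRPS18A was higher with shZMAT2-2 than in the control with the mitochondrial covariate (0.58, limma adjusted p = 0.031) and with the 3 libraries above left out (0.47, limma adjusted p = 0.033). MRPS18B was lower with shZMAT2-2 than with shZMAT2-1 without control replicate 2 and shZMAT2-1 replicate 2 (-0.67, limma adjusted p = 0.022) and without all 3 (-0.45, limma adjusted p = 0.017).

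MRPS30, a large-subunit protein, was steady at 13.2, 11.4 and 12.6 FPKM in the control, 11.9, 16.1 and 11.5 FPKM with shZMAT2-1 and 13.7, 14.9 and 13.1 FPKM with shZMAT2-2. Unlike most of the set, it was highest in shZMAT2-1 replicate 2. MRPS36, the dehydrogenase component, measured 10.1, 3.73 and 9.10 FPKM, then 14.8, 6.53 and 14.2 FPKM, then 8.03, 6.05 and 7.81 FPKM, with low values in the same libraries as MRPL12.

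By subunit, the large-subunit genes had a median control level of 14.7 FPKM and the 26 small-subunit genes one of 11.02 FPKM, tested or not. Their within-control differences were -1.17 and -0.96, and the median differences between hairpins -0.37 and -0.20. Among large-subunit genes, the 30 with bacterial counterparts had a within-control difference of -1.34 and the 20 mitochondria-specific ones of -0.86. Among small-subunit genes these were -0.96 and -0.93. The differences between classes were not tested.

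Genes with and without the promoter letters were also compared. The 17 tested genes with YY1 letters had a median within-control difference of -0.63, from -1.66 to 0.50, and the 49 without had -1.13, from -3.04 to 0.27. For the ETS letters the medians were -1.12 with and -0.97 without. Genes with YY1 letters had a median transcript GC content of 46.4% and those without of 48.9%, and neither the difference between these classes nor the part of GC content in it was tested.

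Genes around the mitochondrial ribosome were followed through fixed lists, and with all 9 libraries and no covariate no gene of any list passed limma's adjusted threshold in any of the 4 contrasts. The 5 mitoribosomal proteins with other names had a median of 0.38 for shZMAT2-1 and -0.08 for shZMAT2-2, and the 24 tested assembly and ribosomal RNA modification factors 0.24 and -0.01. AURKAIP1, a small-subunit protein, measured 82.9, 17.0 and 88.4 FPKM in the control, 132, 47.0 and 121 FPKM with shZMAT2-1 and 29.5, 48.2 and 57.7 FPKM with shZMAT2-2. It had the same 4 high libraries as MRPL12.

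The 13 tested translation factors had a median of 0.16 for both hairpins, where all tested genes were at 0.16 and 0.05. MTIF3, an initiation factor, measured 13.5, 13.5 and 14.3 FPKM in the control, 14.9, 15.6 and 12.2 FPKM with shZMAT2-1 and 17.7, 17.7 and 21.4 FPKM with shZMAT2-2. Its shZMAT2-2 libraries lay above the other 6 (limma adjusted p = 0.65 against the control). Of tested genes, 11.9% had shZMAT2-2 above the control without overlap and 5.59% had it above shZMAT2-1. The 16 tested mitochondrial aminoacyl-tRNA synthetases were at 0.20 and -0.06, and 17 transcription and RNA processing genes at 0.15 and 0.02.

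Among 7 tested nuclear regulators, the medians were 0.16 and 0.08. MYC, a transcription factor known to drive mitochondrial biogenesis genes, measured 8.99, 7.37 and 9.39 FPKM in the control, 10.8, 13.2 and 11.1 FPKM with shZMAT2-1 and 10.7, 12.8 and 12.6 FPKM with shZMAT2-2. All 6 hairpin libraries were above the 3 controls, as for 4.69% of tested genes. The mean difference was 0.43 ± 0.15 (limma unadjusted p = 0.019, adjusted p = 0.50).

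Other large families were compared in the same way. The 81 tested cytosolic ribosomal protein genes had a median difference between the hairpins of -0.67 and the 74 nuclear subunits of oxidative phosphorylation -0.63, against -0.36 for the mitochondrial ribosomal set. Against the control they were at 0.32 and 0.34 for shZMAT2-1, where the set was at 0.33, and at -0.40 and -0.26 for shZMAT2-2, where the set was at -0.04. For the mean of both hairpins they were at -0.05 and 0.05, where the set was at 0.13. In control replicate 2 their library medians, relative to each gene's own mean, were -0.98 and -0.80, against -0.78 for the mitochondrial ribosomal set and -0.48 for all tested genes. The 13 mitochondrially encoded genes ran the other way at 1.91 there, and at -0.48 with shZMAT2-1 and 0.46 with shZMAT2-2 against the control. The differences between families were not tested.

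**Figure D5:**
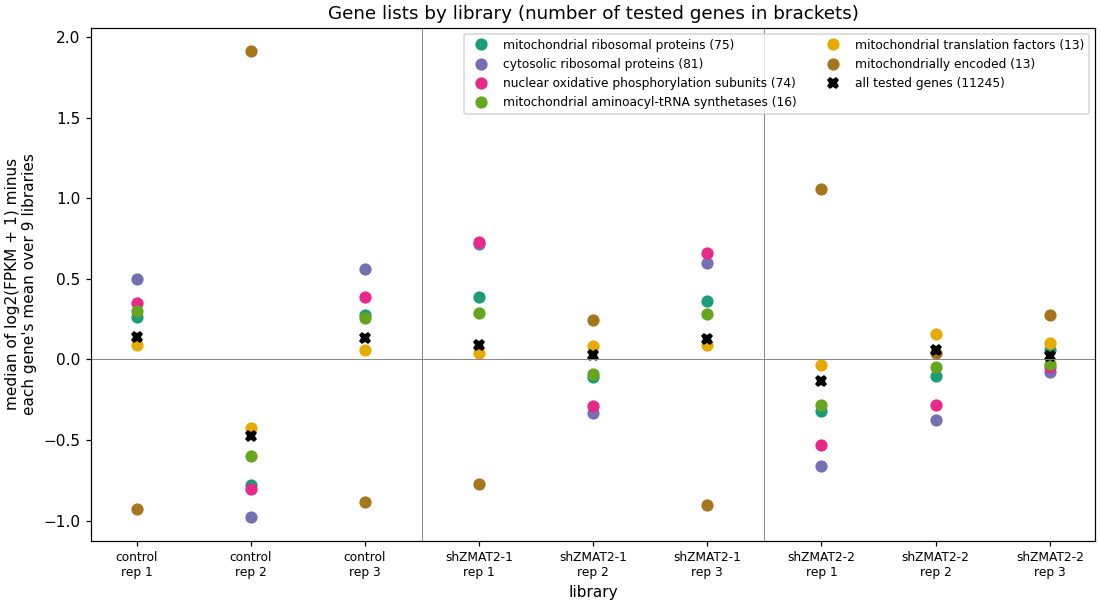
Median of log2(FPKM + 1) relative to each gene's own mean, for 6 gene lists and all tested genes, in the 9 libraries. The mitochondrial ribosomal set lies between the cytosolic ribosomal proteins and all tested genes in control replicate 2 (-0.78, -0.98 and -0.48), and the mitochondrially encoded genes are highest there (1.91).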

How the data were processed

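Poly(A), strand-specific libraries of 9 Huh7 samples were measured. The authors deposited 1 table of FPKM for 27421 genes. The submitters' processing notes name HISAT, featureCounts and DESeq2 with no version; the build, annotation and overlap settings are not given in the sources used here. The gene set and lists were chosen with earlier results of these data known.

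Depth was recovered from 1543 single-exon genes whose low values came out whole, to within 0.1, in steps of 1 fragment. A count of 3 fragments on a 1 kilobase transcript correspond to 0.126 to 0.163 FPKM, which covers counting error only. No replicate columns were identical, and the closest pair had a chi-square per degree of freedom of 4.63, so all 9 were kept.

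limma 3.58.1 in R 4.3.3 was fitted with a trend to log2(FPKM + 1) of 11245 genes that reached 1 FPKM in 3 or more libraries, on all 9 libraries with group as the only term. That scale understates changes of low genes. Calls were two-sided Benjamini-Hochberg adjusted p under 0.05 over all tested genes. On simulated data with 10 draws, the mean contrast recovered 8.2%, 58.4%, 93.4% and 98.4% of genes changed by 0.5, 1, 2 and 3 log2 units, with 6.3 false calls per draw. The simulated noise was independent between genes, whereas genes of these libraries deviate together. The changed genes were drawn from all tested genes, whose median standard error in that contrast is 0.19, against 0.26 for the set. These rates therefore need not hold for the set. Same-numbered libraries of control and shZMAT2-1 correlated in their deviations (0.61 to 0.78), and those of the other group pairs did not do so throughout. Replicates 1 and 3 of control and shZMAT2-1 also correlated across numbers (0.68 and 0.69), and the labels give no pairing. The mitochondrial share is the FPKM times gene length of 13 mitochondrially encoded genes. The mitochondrial covariate is instead the centred log2 of their summed FPKM. Transcript length, GC content and exon overlaps come from GENCODE 29, which lists all 77 genes, 28 at exactly the deposited coordinates.

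Named genes were fixed by rule: MRPL12, MRPL10, the MRPS18 paralogs, MRPS30, MRPS36, the 5 highest levels, the 5 highest and 5 lowest differences in the mean of both hairpins and between hairpins, genes without overlap between the 6 hairpin and 3 control libraries, and those that missed the filter. For some lists, genes among the 3 with the smallest p are shown, not all of them. Others were named after their values were seen: MRPL15, MRPL16, MRPL39, MRPL40 and MRPS11, and those with ranges over 5-fold. Alternatives were another pseudocount (0.1), a filter of 5 FPKM or none, TPM, nuclear and median-of-ratios scaling, a mitochondrial covariate, a replicate block and each library left out in turn. A block on control and shZMAT2-1 alone and the omission of 2 or 3 libraries were added after seeing the data.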

Additional observations from a re-analysis of the deposited data

How the results depend on the processing

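The counts of called genes stayed at 0 in all 4 contrasts with each library left out in turn, with TPM, nuclear or median-of-ratios scaling, with either filter, with a pseudocount of 0.1 and with the replicate block. Same-numbered libraries had correlations of -0.76 to 0.78 over 9 pairs, so the numbers do not pair all 3 groups. The block on all 9 libraries left the adjusted counts at 0, and moved the count at an unadjusted p under 0.05 between hairpins from 0 to 18 of 75 (24%), while all tested genes went from 4.14% to 9.66%. The replicate block on control and shZMAT2-1 alone gave 2 genes, against 249 of 11245 tested genes, with MRPL12 at 0.91 and called. There all 3 same-numbered pairs correlate, but replicates 1 and 3 also correlate across numbers (0.68 and 0.69). The mitochondrial covariate gave 6 genes for shZMAT2-2 and 4 for the mean of both hairpins, against 9.84% and 9.75% of all tested genes. Omitting control replicate 2 and shZMAT2-1 replicate 2, chosen after seeing the data like the block on 6 libraries and the omission of 3, gave 39 for shZMAT2-2 and 48 between hairpins, with MRPL12 at -1.86 and -2.57. Of all tested genes, 30.2% and 42.3% passed there. With shZMAT2-2 replicate 1 omitted too, the counts were 7 for shZMAT2-1, 44 for shZMAT2-2, 7 for the mean and 48 between hairpins. Of all tested genes, 8.31%, 32%, 11.2% and 41.8% passed there. Hairpin and mitochondrial share cannot be told apart for shZMAT2-2 in either omission. With these 3 omitted, MRPL12 was at 0.72, -1.68, -0.48 and -2.40, and the mean difference turned to -0.097 for MRPL10, -0.016 for MRPL41, -0.19 for MRPL51, -0.059 for MRPS18C and -0.0095 for MRPS30. With 2 omitted, the mean difference turned to -0.57 for MRPL12, -0.18 for MRPL10, -0.13 for MRPL41, -0.25 for MRPL51, -0.073 for MRPL55, -0.095 for MRPS18B, -0.076 for MRPS18C and -0.014 for MRPS30. MRPL12 was at -0.041 with median-of-ratios, -0.031 with nuclear scaling and -0.045 with the covariate. MRPL51 was at -0.00018 with median-of-ratios, and MRPS30 at -0.019 with it and -0.00060 with nuclear scaling. With TPM, MRPL11 was at 0.036 in the mean, and MRPL19, MRPL3, MRPL32 and MRPS18A were at -0.014, -0.041, -0.042 and -0.037 between hairpins. With 1 library left out, MRPL12 ranged from -0.10 to 1.73 for shZMAT2-1. In the mean of both hairpins the ranges were -0.98 to 0.55 for MRPL12, -0.27 to 0.54 for MRPL10, -0.72 to 0.25 for MRPL11, -0.57 to 0.089 for MRPL21, -0.74 to 0.34 for MRPL23, -0.49 to 0.10 for MRPL33, -0.65 to 0.22 for MRPL36, -0.39 to 0.56 for MRPL41, -0.46 to 0.45 for MRPL51, -0.32 to 0.73 for MRPL55, -0.0027 to 0.55 for MRPL9, -0.21 to 0.47 for MRPS18B, -0.11 to 0.33 for MRPS18C, -0.027 to 0.50 for MRPS35 and -0.081 to 0.54 for MRPS36. The lowest value of each came without control replicate 2. No value with 1 library left out was called, and the cause was not tested. The set's median in the mean of both hairpins was 0.24 with TPM and 0.01 with median-of-ratios, where all tested genes were at 0.20 and -0.01.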
